A study of Mus musculus with 212 samples.

Results

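Opioid signalling in the brain was followed here through 3 peptide precursor genes and 4 receptor genes: Pdyn (ENSMUSG00000027400), Penk (ENSMUSG00000045573) and Pnoc (ENSMUSG00000045731) for the precursors, and Oprk1 (ENSMUSG00000025905), Oprm1 (ENSMUSG00000000766), Oprd1 (ENSMUSG00000050511) and Oprl1 (ENSMUSG00000027584) for the receptors. Pomc, the precursor of beta-endorphin, was also measured and is described apart from these 7. The 7 genes were chosen by name, as members of this family, from the 27123 rows of the deposited mRNA table. All 7 were in the table, and all 7 were among the 20617 genes that passed the filter on low values (a log2 value of 6 or more in 5 or more profiles).

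The series deals with the LXS panel of recombinant inbred mice, kept untreated, whose parents ILS (Inbred Long Sleep) and ISS (Inbred Short Sleep) descend from lines selected for long and short sleep after ethanol. Values are given here for 23 mRNA profiles. ILS, ISS and LXS80 have 6 each and LXS41 has 5, and LXS41 and LXS80 are inbred strains that each carry a fixed mixture of the parents' genomes. Profiles are numbered within a strain by their column order. The sample labels describe small RNA libraries from the right hemisphere, with no treatment and no age or sex given, and not the mRNA profiles themselves, so the sources used here do not give the tissue and the animals behind a profile. Which labelled sample a used column belongs to is not shown. Columns were used for strains that have no more columns than labelled libraries, and the other 376 columns were not used. The strain effect over the whole panel, the shape of the distribution over strains, and the place of ILS and ISS among the LXS strains were therefore not analysed here.

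Opioid peptides are cut from larger precursor proteins inside secretory vesicles and act on receptors that couple to inhibitory G proteins, so that the receiving neuron fires less and releases less transmitter. Prodynorphin (Pdyn) gives the dynorphins, which act mainly on the kappa receptor (Oprk1); proenkephalin (Penk) gives the enkephalins, which act on the delta (Oprd1) and mu (Oprm1) receptors; and prepronociceptin (Pnoc) gives nociceptin, the ligand of Oprl1. Enkephalin and dynorphin are made in separate classes of striatal projection neurons, and both occur in other brain regions. The family has long been studied in alcohol research, because the mu receptor is tied to reward and the kappa receptor to aversive states.

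The profiles carried the markers of brain tissue: the mean of 6 neuronal markers lay between 11.5 and 11.7 on the log2 scale in each of the 23 profiles. Column medians lay between 7.11 and 7.24, and the rank correlation between any 2 profiles was from 0.983 to 0.994. The profile ILS replicate 4 stood apart: it was the lowest of the 23 for 6 of 6 cerebellar markers, with Gabra6, a receptor subunit of cerebellar granule cells, at 6.51 against 10.01 in the next lowest profile. Many of the results are given with and without it. Others are given only with it, among them the neighbouring genes on the chromosome and many correlations with lists of genes. Column names carry a set number, which the sources used here do not explain. ILS, ISS and LXS41 have only set 1 in common, and LXS80 (sets 3 and 14) shares no set with the others, so a difference of LXS80 from another strain and a difference between sets cannot be told apart.

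Penk had the highest signal of the 7 genes, at a median percentile of 99.7 among all genes of a profile, and Oprm1 the lowest, at 39.7. Oprd1 lay at 87.9, Oprl1 at 82.9, Pnoc at 54.8, Oprk1 at 53.7 and Pdyn at 52.2. These ranks describe signals, and no order of transcript abundance can be read from them, since probe efficiency differs between genes and no values per length were given. Over the 23 profiles Penk spanned 0.75 log2 units, Pdyn 0.63, Oprk1 0.61, Pnoc 0.49, Oprd1 0.38, Oprl1 0.30 and Oprm1 0.28.

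Between the parents, 3 of the 7 genes passed the test (limma on strain means, Benjamini-Hochberg adjusted over all genes tested, threshold 0.05). Pdyn and Pnoc were higher in ILS, by 1.17-fold and 1.16-fold, and Oprk1 was 1.20-fold lower in ILS. Of all genes tested, 7.60% passed in this comparison. Penk, Oprm1, Oprd1 and Oprl1 did not pass. Without the filter on low values only Oprk1 passed. With set as a term, a fit that takes the parents' difference from set 1 alone, none did. Of the markers of other cell types, 1 of 6 for neurons and 1 of 5 for microglia were higher in ILS, 1 of 5 for astrocytes and 1 of 5 for oligodendrocytes were lower, and 0 of 4 for endothelial cells passed. Of the 6 choroid plexus markers 4 were lower in ILS, with a median difference of -0.28. Without ILS replicate 4 the counts for choroid plexus, neurons and microglia were unchanged, and no astrocyte or oligodendrocyte marker passed. In that fit 1 endothelial marker, Cldn5, was lower in ILS. The part of these cell types in the opioid differences was not tested. In samples of bulk tissue, fewer cells of a type and less RNA per cell cannot be told apart, and whether sequence variants between strains lie under the probes was not tested.

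Pdyn, the dynorphin precursor, ran from 7.29 to 7.70 in ILS (median 7.34) and from 7.07 to 7.30 in ISS (median 7.18). The 5 LXS41 profiles were at 7.19, 7.34, 7.40, 7.29 and 7.22, and the LXS80 profiles ran from 7.15 to 7.51 (median 7.33). ILS replicate 4, the profile with low cerebellar markers, held the highest value of all 23, and the ILS and ISS ranges overlapped only at their edges, with the highest ISS profile at 7.30 and the lowest ILS profile at 7.29. The ILS mean of 7.41 ± 0.15 (SD, n = 6) was above the ISS mean of 7.18 ± 0.08 (n = 6) by 0.23 (SE 0.07, 95% interval 0.09 to 0.37; limma adjusted p = 0.0402). Without ILS replicate 4 the difference was 0.17 and did not pass (adjusted p = 0.112). Leaving out any of 6 other profiles (ILS replicate 2 and ISS replicates 1, 2, 3, 4 and 6) also ended the call. It held in 16 of 23 such fits, but leaving out an LXS41 or LXS80 profile cannot change the parents' difference. Among the fits that left out a parent profile, the call held only without ILS replicate 1, 3, 5 or 6 or ISS replicate 5.

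The promoter window of Pdyn is shown because Pdyn is the called precursor for which a start site sequence was at hand. RefSeq's sequence on GRCm38.p6 from 250 bases before to 50 bases after the first of 2 annotated starts, chr2:129699889-129700188 on the minus strand, reads 5′ to 3′ as follows.
Pdyn promoter: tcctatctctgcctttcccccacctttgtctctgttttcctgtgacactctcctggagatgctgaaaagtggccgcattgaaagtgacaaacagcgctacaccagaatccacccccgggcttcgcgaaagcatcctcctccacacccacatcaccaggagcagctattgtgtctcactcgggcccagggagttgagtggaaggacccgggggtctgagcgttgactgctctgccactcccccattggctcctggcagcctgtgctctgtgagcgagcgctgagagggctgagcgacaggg
It holds 11 CpG pairs at 59.0% G and C, against a median of 7 CpG pairs over 32851 windows of the same length. The window of the other start, chr2:129698609-129698908, holds 5 CpG pairs at 44.3% G and C. A search of both strands for the cyclic AMP response core TGACG, the AP-1 motif TGANTCA and the GC box GGGCGG found none of these letters in either window. Of all windows, 20.8% held TGACG, 7.8% TGANTCA and 35.7% GGGCGG.

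Pnoc, the nociceptin precursor, ran from 7.40 to 7.61 in ILS (median 7.55) and from 7.15 to 7.44 in ISS (median 7.34). In LXS41 it was at 7.18, 7.28, 7.38, 7.26 and 7.22, and in LXS80 it ran from 7.20 to 7.64 (median 7.44). All LXS41 profiles lay below all ILS profiles, while the ILS and ISS ranges overlapped. How many of all genes lack overlap between ILS and LXS41 was not computed. The ILS mean of 7.52 ± 0.08 (SD, n = 6) was above the ISS mean of 7.32 ± 0.11 (n = 6) by 0.21 (SE 0.06, 95% interval 0.08 to 0.34; limma adjusted p = 0.0410). This call held in 15 of 23 fits that left out a profile, but leaving out an LXS41 or LXS80 profile cannot change the parents' difference. It ended without ILS replicate 1, 2, 4 or 6 or ISS replicate 1, 3, 4 or 6. Among the fits that left out a parent profile, it held only without ILS replicate 3 or 5 or ISS replicate 2 or 5. The highest limma adjusted p came without ISS replicate 3 (0.105), and differences ran from 0.17 to 0.23 over all 23 fits.

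Penk, the enkephalin precursor, ran from 11.95 to 12.34 in ILS (median 12.17) and from 12.03 to 12.25 in ISS (median 12.13). LXS41 profiles were at 12.03, 12.10, 12.14, 12.14 and 12.11, and LXS80 profiles ran from 11.59 to 12.28 (median 12.09). The 4 ranges overlapped, and the low value of 11.59 belonged to 1 profile, LXS80 replicate 2. ILS and ISS differed by 0.03 (95% interval -0.13 to 0.20; limma adjusted p = 0.875), an interval that leaves room for a difference of up to 0.20. Without ILS replicate 4 the difference was -0.00233.

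Oprk1, the kappa receptor, ran from 7.09 to 7.35 in ILS (median 7.27) and from 7.35 to 7.63 in ISS (median 7.51). LXS41 had the lowest mean, with profiles at 7.28, 7.08, 7.13, 7.02 and 7.12 that overlapped those of ILS, and LXS80 ran from 7.37 to 7.55 (median 7.42). All ISS profiles lay above all ILS profiles, but by a gap of only 0.00325 between the nearest 2. Among all genes tested, 4.22% had parents' values that did not overlap; of the 7 opioid genes, Oprk1 alone did. The ILS mean of 7.24 ± 0.11 (SD, n = 6) was below the ISS mean of 7.51 ± 0.11 (n = 6), a difference of -0.27 (SE 0.06, 95% interval -0.38 to -0.15; limma adjusted p = 0.00427). The call held in 23 of 23 fits that left out a profile, with differences between -0.30 and -0.24 and adjusted p from 0.00179 to 0.0140. It ended with set as a term in the fit, where the difference comes from set 1 alone (limma adjusted p = 0.164).

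Oprd1, the delta receptor, ran from 9.29 to 9.42 in ILS (median 9.39) and from 9.04 to 9.41 in ISS (median 9.23). LXS41 was at 9.20, 9.28, 9.22, 9.32 and 9.16, and LXS80 ran from 9.04 to 9.29 (median 9.16). ISS replicate 6, at 9.41, lay among the ILS values, while the other ISS profiles were at 9.28 or lower. ILS, at 9.38 ± 0.05 (SD, n = 6), and ISS, at 9.23 ± 0.12 (n = 6), differed by 0.14 (SE 0.05, 95% interval 0.04 to 0.24), which did not pass (limma adjusted p = 0.0688). Without ISS replicate 6 the difference was 0.18 and passed (adjusted p = 0.0174), and after median centring of the profiles it also passed (adjusted p = 0.0363).

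The promoter of Oprd1 is shown as a contrast to that of Pdyn, since its base composition lies far from that of a typical window. The RefSeq window on GRCm38.p6, chr4:132144437-132144736 on the minus strand, is printed 5′ to 3′ with the GC box, GGGCGG or its reverse complement, in capitals.
Oprd1 promoter: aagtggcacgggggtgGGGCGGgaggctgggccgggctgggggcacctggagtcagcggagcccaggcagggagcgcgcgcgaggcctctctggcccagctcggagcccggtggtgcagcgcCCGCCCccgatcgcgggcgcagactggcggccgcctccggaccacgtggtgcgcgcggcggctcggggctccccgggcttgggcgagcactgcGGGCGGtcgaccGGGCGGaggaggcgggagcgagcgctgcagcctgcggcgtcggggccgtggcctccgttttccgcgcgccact
It holds 43 CpG pairs at 79.3% G and C and 4 GC boxes, and neither TGACG nor TGANTCA. A match describes the letters and is not evidence that a factor binds there.

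Oprm1, the mu receptor, ran from 6.60 to 6.76 in ILS (median 6.70) and from 6.65 to 6.82 in ISS (median 6.74). LXS41 was at 6.60, 6.64, 6.74, 6.61 and 6.66, and LXS80 ran from 6.54 to 6.74 (median 6.63). All 4 ranges overlapped within 0.28 log2 units. ILS and ISS differed by -0.04 (95% interval -0.13 to 0.06; limma adjusted p = 0.707). Oprl1, the nociceptin receptor, ran from 8.84 to 8.98 in ILS (median 8.89), from 8.80 to 9.01 in ISS (median 8.94) and from 8.86 to 9.04 in LXS80 (median 8.90), and LXS41 was at 8.74, 8.91, 8.88, 8.86 and 8.99. Its ranges overlapped in every pair of strains, and ILS and ISS differed by -0.02 (95% interval -0.11 to 0.07; limma adjusted p = 0.873). For Oprm1 and Oprl1 the intervals allow differences in signal between the parents of at most 0.13 log2 units. Oprm1, between 6.54 and 6.82, lay below every column median, and how near its signal is to background was not tested.

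**Figure D1:**
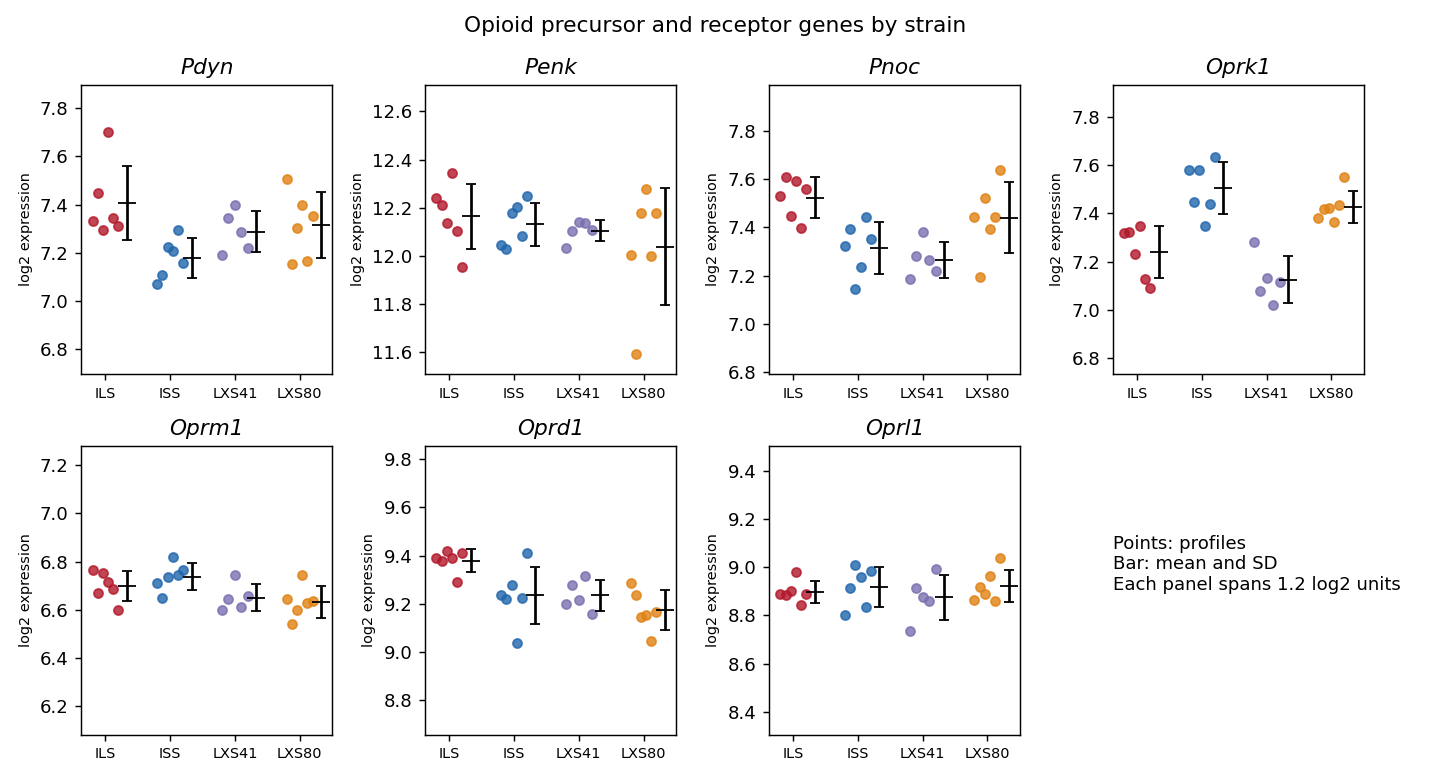
Log2 expression (vertical axis) of the 7 opioid genes by strain (horizontal axis), 1 point per profile, with the mean and SD of each strain beside the points; every panel spans the same number of log2 units. Oprk1 is high in ISS and LXS80 and low in LXS41, with a mean of 7.24 in ILS against 7.51 in ISS, while the 4 strains overlap for Penk, Oprm1 and Oprl1.

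Over the 4 strains, 3 of the 7 genes passed limma's F test for a strain effect, against 22.6% of all genes tested. Strain took the largest share of variance in Oprk1, at 73.7% (F = 17.0, adjusted p = 0.000243), which placed it at the 98.2 percentile of all genes tested for that share. In Pnoc strain took 50.8% of the variance (F = 6.61, adjusted p = 0.0182), and in Oprd1 50.9% (F = 6.59, adjusted p = 0.0183). Pdyn, at 36.6% (adjusted p = 0.0798), and Oprm1, at 36.1% (adjusted p = 0.232), did not pass, although both lay above the median share of all genes, 27.2%. Penk, at 10.5% (adjusted p = 0.575), and Oprl1, at 6.68% (adjusted p = 0.791), had most of their spread among profiles of 1 strain. The same 3 calls were made in 23 of 23 fits that left out a profile. The F test was run without set as a term, so these shares also hold any difference between sets. LXS80 shares no set with the other strains.

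Ordered by mean level, Oprk1 ran from ISS (7.51) over LXS80 (7.43) and ILS (7.24) to LXS41 (7.12). ISS and LXS80, and ILS and LXS41, are neighbours that did not differ by the test. The difference of 0.38 between ISS and LXS41 passed (limma adjusted p = 0.000312; 8.65% of all genes passed in this pair), as did that of -0.30 between LXS41 and LXS80 (adjusted p = 0.00206; 20.7% of all genes). Both held in 23 of 23 fits that left out a profile. The middle step, ILS against LXS80, was -0.19 with no overlap of the values and did not pass (adjusted p = 0.0681). How many of all genes lack overlap in this pair was not computed.

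Pnoc ran from ILS (7.52) over LXS80 (7.44) and ISS (7.32) to LXS41 (7.27). Beside ILS and ISS, the pair of ILS and LXS41 differed, by 0.26 (limma adjusted p = 0.0191; 7.0% of all genes passed in this pair), and leaving out either LXS41 replicate 1 (adjusted p = 0.0686) or ILS replicate 2 ended this call. Oprd1 ran from ILS (9.38) to LXS41 and ISS (both 9.23) and LXS80 (9.17), and ILS and LXS80 differed by 0.21 (adjusted p = 0.0150; 3.58% of all genes), in 23 of 23 fits that left out a profile. Between ISS and LXS80 none of the 7 genes passed with limma, where 4.65% of all genes did and Oprm1 alone, with a difference of 0.10, had an unadjusted p under 0.05, as 20.5% of all genes had. Pdyn ran from ILS (7.41) over LXS80 (7.31) and LXS41 (7.29) to ISS (7.18), and only its 2 ends differed by the test. In Penk, Oprm1 and Oprl1 no pair of strains passed. Of the 42 tests of 7 genes in 6 pairs of strains, 7 passed in all. The share of all genes that passed in a pair ran from 3.58% (ILS and LXS80) to 20.7% (LXS41 and LXS80).

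Only set 1 held both parents. Within it, with 3 profiles of each parent, Oprk1 differed by -0.25, Pnoc by 0.24, Pdyn by 0.22 and Oprd1 by 0.15, and none of the 7 genes passed limma's test (lowest adjusted p = 0.185, Oprk1), where 1.43% of all genes did; 4 of the 7 had an unadjusted p under 0.05, as did 12.1% of all genes. The fit over all profiles with set as a term also takes the parents' difference from set 1, so it is no second check. None of the 7 passed in that fit (Oprk1 limma adjusted p = 0.164). ILS in set 11 and ISS in set 15 share no set, so strain and set cannot be told apart there; the differences were -0.29 for Oprk1, 0.17 for Pnoc, 0.23 for Pdyn and 0.14 for Oprd1. None passed there (lowest adjusted p = 0.261, Oprk1), against 1.37% of all genes, and 1 of the 7 had an unadjusted p under 0.05, as did 14.1% of all genes. These 4 differences had the same sign in set 1 and in sets 11 and 15, though these profiles had also entered the fit over all sets. Limma's test that the difference itself changed between the sets called none of the 7 genes (adjusted p = 0.9999 for each) and gave none of them an unadjusted p under 0.05. It called 0 of the 20617 genes, and 4.65% of them had an unadjusted p under 0.05, so it does not show that the differences were alike. Penk and Oprm1, which passed in no comparison of the parents, had opposite signs in the 2 parts of the data: Penk differed by 0.11 in set 1 and by -0.04 in sets 11 and 15, and Oprm1 by 0.03 and -0.11.

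**Figure D2:**
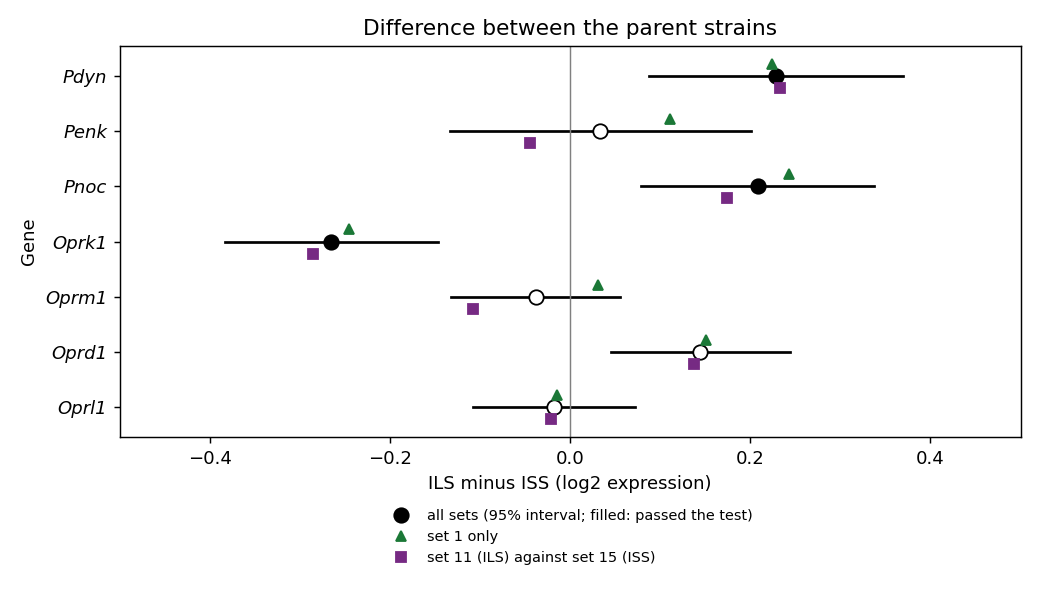
Difference between the parents, ILS minus ISS in log2 expression (horizontal axis), for each opioid gene (vertical axis): circles give all profiles with a 95% interval and are filled where the gene passed the test, triangles give set 1 and squares sets 11 and 15. For Pdyn, Pnoc, Oprk1 and Oprd1 the triangle and the square lie within the interval on the same side of 0, as with -0.25 and -0.29 for Oprk1.

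How precursors and receptors varied together was described by correlations across the 23 profiles; as the profiles share strains and sets, no p is given. The 3 precursors were positively correlated with each other, with Pearson's r of 0.57 for Pdyn and Pnoc (Spearman's rho 0.59), 0.45 for Pdyn and Penk (rho 0.42) and 0.34 for Penk and Pnoc (rho 0.24). The last of these came to 0.04 without the 2 profiles farthest from the median of Penk. On deviations from the strain means the 3 values were 0.41, 0.56 and 0.45. Without ILS replicate 4 they were 0.51, 0.32 and 0.26, and 0.40, 0.50 and 0.43 on deviations. For Penk and Pnoc the values on deviations also fell without the 2 profiles whose Penk deviations were farthest from the median. They came to 0.25, and to 0.18 with ILS replicate 4 out as well.

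Ligands and receptors were on the whole weakly related. Over the 12 pairs of a precursor and a receptor the median r was 0.13, and 0.17 on deviations from the strain means; without ILS replicate 4 these were 0.06 and 0.15. The highest was that of Penk with Oprm1, a receptor for enkephalin, at 0.65 (rho 0.62), and it was 0.57 without the 2 profiles farthest from the median of Penk and 0.66 on deviations. Without ILS replicate 4 it was 0.66, and 0.67 on deviations. Penk and Oprd1, the other enkephalin receptor, had r = 0.14 (0.06 without ILS replicate 4), and -0.09 on deviations. Pdyn and its receptor Oprk1 had r = -0.29, and -0.38 without ILS replicate 4. On deviations their value was 0.04 with that profile and -0.17 without it, so its sign within strains rests on 1 profile. Pnoc and its receptor Oprl1 had r = 0.10 (0.03 without ILS replicate 4), and 0.06 on deviations. Among the 4 receptors, values ran from -0.17 to 0.25.

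**Figure D3:**
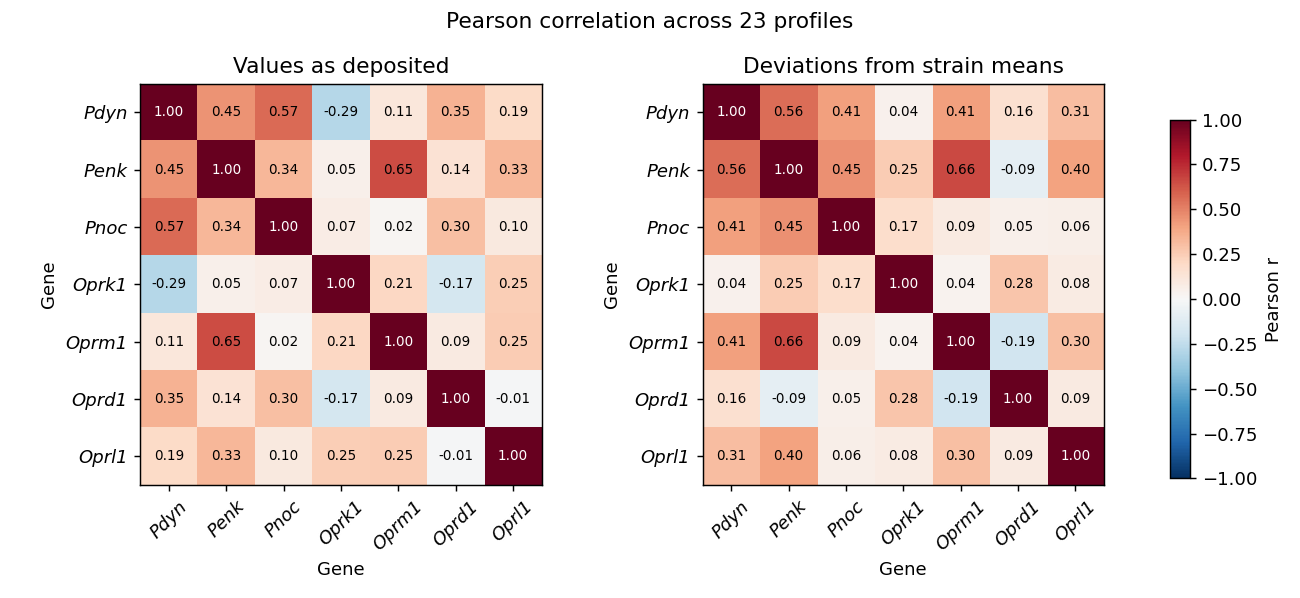
Pearson correlation (colour, from -1 to 1) between each pair of the 7 opioid genes (both axes) across 23 profiles, as deposited on the left and on deviations from strain means on the right. Penk with Oprm1 keeps a value near its first in the second panel (0.65 and 0.66), whereas Pdyn with Oprk1 goes from -0.29 to 0.04, or from -0.38 to -0.17 without ILS replicate 4.

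Penk and Pdyn were correlated with the level of genes of striatal projection neurons, among other lists. The mean of 14 such genes (among them Drd1, Drd2, Adora2a, Ppp1r1b, Pde10a, Rgs9, Gpr6, Tac1, Rarb, Bcl11b, Foxp1, Adcy5 and Syndig1l; Rgs9 and Adcy5 are also on the list of receptor coupling genes, and Tac1 on that of habenula and thalamus) correlated with Penk at r = 0.82 (rho 0.73), with Pdyn at 0.72 (rho 0.66) and with Pnoc at 0.60 (rho 0.56), and with Oprk1 at -0.02. On deviations from the strain means the values were 0.88, 0.71, 0.53 and 0.15. ILS replicate 4 had the highest striatal mean, 9.56, and LXS80 replicate 2, with the lowest Penk, had the lowest, 8.82. Without these 2 profiles r was 0.58 for Penk, 0.57 for Pdyn and 0.49 for Pnoc. The mean of 11 hypothalamic peptide genes had r = 0.57 with Penk and 0.33 with Pdyn, and 0.64 and 0.51 without the 2 profiles farthest from its median. The mean of the 6 neuronal markers had r = 0.29 with Penk, 0.53 with Pdyn and 0.54 with Pnoc, and 0.37, 0.63 and 0.45 without its 2 farthest profiles. Oprm1 had r = 0.55 with the hypothalamic mean, 0.50 without the 2 profiles farthest from the median of that mean, and 0.68 on deviations. With Penk the hypothalamic mean had 0.66 on deviations. With the striatal mean, Oprm1 had r = 0.38, 0.13 without ILS replicate 4 and LXS80 replicate 2, and 0.50 on deviations. The part of these lists in the correlation of Penk with Oprm1 was not tested. Oprd1 had r = 0.08 and Oprl1 0.39 with that striatal mean.

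Beside the parents' difference in Pdyn stands that of the striatal genes. Their mean ran from 9.14 to 9.56 in ILS (median 9.24), from 9.03 to 9.25 in ISS (median 9.18), from 9.07 to 9.23 in LXS41 (median 9.17) and from 8.82 to 9.34 in LXS80 (median 9.26). Of the 14 genes, 13 had a higher mean in ILS than in ISS, with a median difference of 0.12 against -0.0066 over all genes tested, and 1 passed: Ppp1r1b, the dopamine-regulated phosphatase inhibitor DARPP-32, by 0.25 (SE 0.07, limma adjusted p = 0.0197). Drd2, the D2 dopamine receptor, was at a difference of 0.30 (limma adjusted p = 0.137). Without ILS replicate 4 none of the 14 passed with limma (3 had an unadjusted p under 0.05, as did 17.9% of all genes) and their median difference was 0.07. The part of striatal content in the Pdyn difference was not tested. For Oprk1, the mean of 8 genes of habenula and thalamus had r = 0.47, and 0.05 on deviations from the strain means; 7 of these 8 genes were lower in ILS and none passed with limma (3 with an unadjusted p under 0.05, none of them without ILS replicate 4), with Slc17a6, the thalamic vesicular glutamate transporter, at -0.24 (adjusted p = 0.169) and Chrna3, a nicotinic receptor subunit, at -0.17 (adjusted p = 0.209). Of all genes, 20.0% had an unadjusted p under 0.05 in this comparison, and 9667 of 20617 had a higher mean in ILS. The habenula and thalamus mean was not tied to Oprk1 alone. It had r = 0.54 with Oprl1, 0.48 with Penk and 0.44 with Oprm1, and 0.51, 0.63 and 0.44 on deviations. With Pnoc it had r = 0.23, with Pdyn -0.02 and with Oprd1 -0.17. The part of habenula and thalamus content in the Oprk1 difference was not tested.

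**Figure D4:**
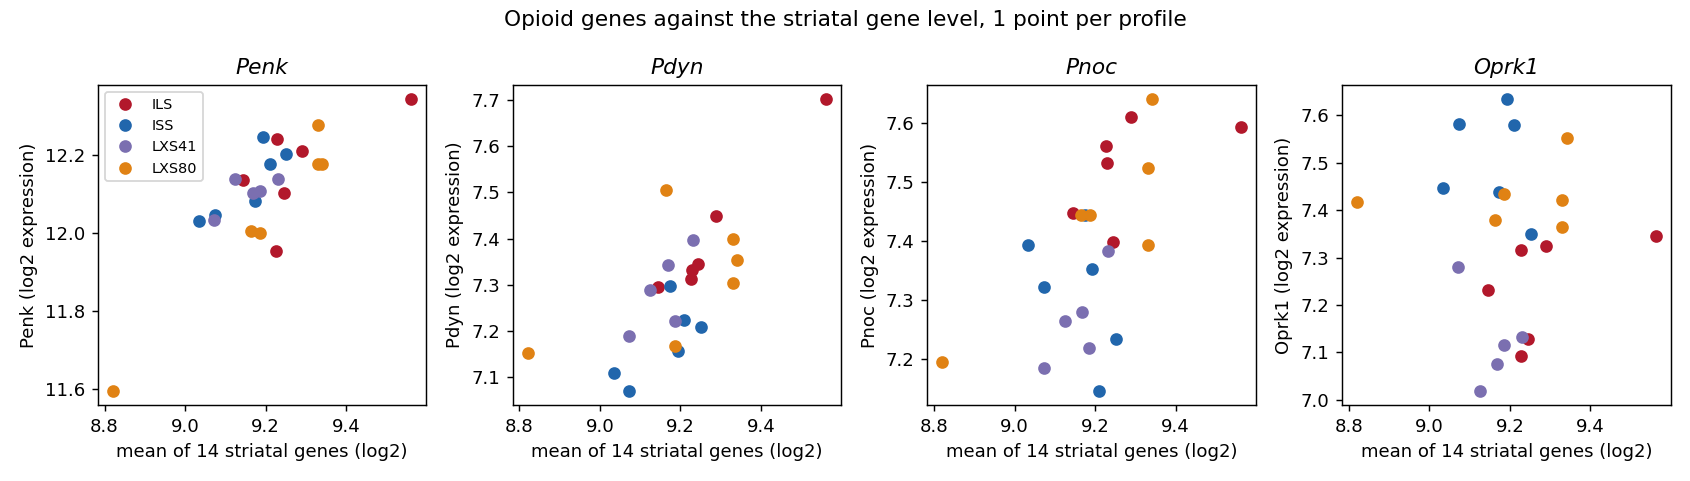
Log2 expression of Penk, Pdyn, Pnoc and Oprk1 (vertical axes) against the mean of 14 striatal genes (log2, horizontal axes), 1 point per profile, coloured by strain. Penk and Pdyn rise along the axis, with ILS replicate 4 at the right end (9.56) and LXS80 replicate 2 at the left (8.82), while Oprk1 shows no such slope (r = -0.02).

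Of 40 other genes of the pathway, 4 passed between the parents, against 7.60% of all genes tested. An unadjusted p under 0.05 was found for 20.0% of all genes in this comparison, and for 17.9% without ILS replicate 4. Of 10 genes that process the precursors or belong to their granules, none passed with limma and 3 had an unadjusted p under 0.05; the 2 with the smallest p were Pcsk1, a prohormone convertase that cleaves opioid precursors, at 0.22 (SE 0.07, adjusted p = 0.0514), and Pcsk2, its partner enzyme, at 0.11 (adjusted p = 0.156). Of 8 peptidase genes that can break down opioid peptides, 1 was lower in ILS, Ace, the angiotensin-converting enzyme, by -0.29 (SE 0.08, adjusted p = 0.0192), a call that ended when ILS replicate 4 was left out. In the same comparison 4 of 6 markers of the choroid plexus, an epithelium that expresses Ace, were lower in ILS, with a marker mean of 8.37 to 8.74 in ILS and 8.76 to 8.94 in ISS; their part in the Ace difference was not tested. The aminopeptidase Anpep was at -0.18 and did not pass (adjusted p = 0.0667).

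Of 22 genes of receptor coupling and desensitization, 2 were higher and 1 lower in ILS. Rgs4, which speeds the shut-off of inhibitory G proteins, was 0.33 higher (SE 0.07, limma adjusted p = 0.00329). Grk3, a kinase that phosphorylates active receptors, including opioid receptors, was lower by -0.22 (SE 0.05, adjusted p = 0.00565). Cacna1b, the pore subunit of the N-type calcium channel that opioid receptors inhibit, was 0.11 higher (adjusted p = 0.0480). Rgs4 and Grk3 passed without ILS replicate 4, and Cacna1b did not. The median difference of the 22 genes was 0.01. By the F test over the 4 strains, 4 of the 10 processing genes, 4 of the 8 peptidase genes and 7 of the 22 coupling genes passed, where 22.6% of all genes did.

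Genes of other peptide neurons were set beside the precursors. Pomc, the precursor of beta-endorphin, which is also a pituitary gene, ran from 6.35 to 7.48 over the 23 profiles and differed by -0.09 between the parents (limma adjusted p = 0.810). Of 8 peptide and marker genes of interneurons and amygdala, 2 were higher in ILS: Sst, somatostatin, by 0.23 (SE 0.06, adjusted p = 0.0258), and Cck, cholecystokinin, by 0.27 (SE 0.08, adjusted p = 0.0360). Neither passed without ILS replicate 4. Of 11 hypothalamic peptide genes, 1 was lower in ILS, Avp, vasopressin, by -0.42 (SE 0.11, adjusted p = 0.0167), and it passed without ILS replicate 4 as well; Hcrt, the orexin precursor, was at 0.16 (adjusted p = 0.416).

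The genes whose profiles were most like those of the opioid genes were taken by Pearson's r over the 23 profiles among all genes that passed the filter. For Penk they were Rgs9 (r = 0.83), Adcy5 (0.82) and Adora2a (0.82), all 3 from the striatal list, and on deviations from the strain means they were at 0.86, 0.87 and 0.86. For Pdyn they were Rgs14 (0.84), Abi3bp (0.83) and 2810455O05Rik (0.82), at 0.80, 0.73 and 0.71 on deviations. Without ILS replicate 4 these 3 genes were at 0.76, 0.75 and 0.81 with Pdyn. For Oprk1 they were Sypl (0.87), Gm11539 (0.86) and Arnt2 (0.86), which on deviations were at 0.64, 0.44 and 0.52, so the likeness was smaller within strains than over all profiles. For Pnoc they were Zfp958 (0.79), Spred1 (0.78) and Samd5 (0.77), and for Oprd1 Arhgef19 (0.82), Acp5 (0.80) and Duoxa2 (0.79). For Oprm1 they were Gm8894 (0.80), Sult2a5 (0.79) and Gm12452 (0.77), of which 2 have symbols of predicted genes and whose identity is uncertain. For Oprl1 they were Casp8 (0.83), Dnajc16 (0.81) and Lcmt1 (0.81). The values are the highest of many correlations and are therefore a description.

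The nearest measured genes on the chromosome, 3 on each side by the RefSeq order, were looked at for each opioid gene. Around Oprk1 and around Pnoc none of the 6 neighbours passed between the parents with limma. Around Pdyn 1 passed, Stk35, a kinase gene that adjoins it, in the direction opposite to Pdyn, at -0.19 (adjusted p = 0.0128). Around Penk 2 passed, Chchd7 at -0.19 (adjusted p = 0.0489) and Ubxn2b at 0.18 (adjusted p = 0.0288), while Penk itself did not. Gm12992 near Oprd1 (-0.21, adjusted p = 0.0166) and Tcea2 near Oprl1 (-0.17, adjusted p = 0.0131) passed, and none did around Oprm1. Over the 7 genes 5 of 42 neighbours passed, or 11.9%, against 7.60% of all genes tested.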

How the data were processed

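The deposited mRNA table holds 1 log2 value per gene and profile, made by the authors on a platform and with a normalization that the sources used here do not give (its header speaks of probes). The labels describe only the small RNA libraries (211 of 212 with a strain), whose tables were not used. Columns were used for strains that have no more columns than labelled libraries, which gave 23 of 399 columns; 376 were not used. Gene symbols were matched by identifier for 26820 of 27123 rows. Nothing says that profiles are separate animals beyond the animal number in their names, so p-values measure the spread between these profiles, and their number limits the precision.

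Genes at or above 6 (log2) in at least 5 profiles were kept. The 23 profiles entered 1 fit of strain means in limma 3.58.1 (R 4.3.3; intensity trend, robust empirical Bayes). Adjustment was by Benjamini-Hochberg over all 20617 genes, and the threshold was 0.05. Contrasts between strains, an F test and a parent by set interaction were tested; the fits on single sets kept the same genes. The procedure was tested on simulated data. Alternatives were no filter, a filter at 7, quantile normalization, median centring, no trend or robust setting, the parents alone, set as a term, single sets, and leaving out each profile.

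The genes and lists were chosen with earlier results of these data known. Named were all 7 genes, the 2 genes of each related list with the smallest p, the other called genes of those lists, and the 3 genes most correlated with each opioid gene; 1 list gene under this rule is not reported here. Chosen after the values were seen were the fits without ILS replicate 4 for the lists, the pair counts under the alternatives, the gene set of the single-set fits, Drd2, the chromosomal neighbours, the promoters and their motifs. Promoter windows were found for 4 of the 7 genes. Neighbours come from RefSeq's GRCm38.p6; the table names no build, so no coordinates of its genes are given.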

Additional observations from a re-analysis of the deposited data

Results flagged for a closer look

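In the 28 groups of 1 gene in 1 strain, 2 profiles lay farther from the rest of their group than Dixon's critical value allows; chance alone marks about 1 group in 20. Oprk1 in LXS80 replicate 6 was at 7.55, against 7.44 for the next highest LXS80 profile. Oprd1 in ILS replicate 5 was at 9.29, against 9.38 for the next lowest ILS profile. ILS replicate 4, the profile with low cerebellar markers, came near but did not pass this rule for Pdyn, at 7.70 against 7.45.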

How the results depend on the processing

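The count of opioid genes called between the parents, 3 of 7, was 1 without the filter on low values (Pdyn adjusted p = 0.0510, Pnoc 0.0515) and 1 without ILS replicate 4, where 6.02% of all genes were called, and it ran from 1 to 3 over fits that left out a profile. It was 0 of 7 with set as a term (Oprk1 limma adjusted p = 0.164), a fit that takes the parents' difference from set 1. The share of all genes called in that fit was not computed. It was also 0 of 7 in set 1 alone (1.43% of all genes) and in sets 11 and 15 alone (1.37%). Each of these results rests on fewer profiles. With the parents alone in the fit Pdyn did not pass (adjusted p = 0.0662), and after median centring Oprd1 did. The direction changed for genes that were not called: Penk ran from -0.00233 (without ILS replicate 4) to 0.0757 over fits that left out a profile and was at -0.0442 in sets 11 and 15, Oprl1 ran from -0.0414 to 1.14e-05 (without ISS replicate 3), and Oprm1 was at 0.031 with set as a term and in set 1. The cause was not tested. The count by the F test was 3 under the filter, scaling, trend and left-out profile alternatives (with the filter at 7 Oprm1 was not tested); it was not run for the parents alone, set as a term or single sets. The number of pair calls ran from 4 to 8 over fits that left out a profile, with 4 without ILS replicate 2. It was 5 without the filter on low values and 9 after median centring. The scaling alternatives moved the median difference of all genes to between 0.00014 and 0.0017, from -0.0066. No paired analysis was possible because the column names carry no replicate numbers of the labels.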
